A study of Caenorhabditis elegans with 6 samples.

Results

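Touch receptor neuron genes of Caenorhabditis elegans were followed on 6 whole-worm expression arrays. The 9 genes were selected by their symbol in the platform annotation (mec-2, mec-3, mec-4, mec-7, mec-9, mec-10, mec-12, mec-17 and mec-18). Each gene is read by 1 probe set, so the members are 9 of 29317 deposited probe sets, of which 26192 carry a gene and were tested. All worms were hermaphrodites of the wild-type strain N2, grown from synchronised L1 larvae on NGM plates for 48 h until the L4 stage, from a parent population fed Escherichia coli OP50. They then spent 24 h at 20 °C in 50% M9 buffer. The control group (3 arrays) had buffer alone. The exposed group (3 arrays) had 500 µg/ml BSA-SPIONs, which are superparamagnetic iron oxide nanoparticles with a bovine serum albumin coat, and no array analysed here had albumin alone, so the particle and its coat cannot be told apart. The labels do not say whether replicates came from separate cultures, so the p-values cover only differences among these 6 arrays, and that spread may be technical.

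Touch receptor neurons are the few mechanosensory cells that let the worm feel a gentle stroke along its body. They transduce touch through a sodium channel of the DEG/ENaC family, formed by MEC-4 and MEC-10, that works with the stomatin-like protein MEC-2 and with an extracellular matrix that includes MEC-9. Their processes are filled with unusually wide microtubules made of the beta-tubulin MEC-7 and the alpha-tubulin MEC-12, which MEC-17 acetylates. The LIM homeodomain factor MEC-3, acting with the POU factor UNC-86, switches these genes on. Several members are also expressed in other neurons. The factor mec-3 acts in the FLP and PVD neurons, mec-10 is expressed there too, and mec-12 is expressed in further neurons, so a whole-worm value is not from touch receptor neurons alone. In a whole worm, fewer cells of a type and less RNA per cell cannot be told apart.

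All 9 genes had a lower mean in exposed worms, but none passed the adjusted threshold of 0.05 in limma. Of all tested probe sets, 2.6% were called lower and 1.06% higher. At an unadjusted p under 0.05, 6 of the 9 were lower and 0 higher. By that measure 22.5% of all tested probe sets differed in either direction, and 3240 of the 26192 were lower. The exposed arrays all lay below all controls for 5 of the 9 (mec-2, mec-4, mec-9, mec-12 and mec-18), a separation seen in 13.5% of all tested probe sets. A negative log2 change was found in 44.7% of all tested probe sets. The median log2 change of the 9 genes was -1.01, beside 0.05 over all tested probe sets. The smallest p-value among the members, that of mec-2, ranked 2136 of 26192, while 959 probe sets were called.

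Control 3 stood apart from the other controls in these genes. It was the lowest control for 7 of the 9 and the highest for 0, and its mean over the 9 genes was 4.11 (log2) against 5.05 and 5.20 in controls 1 and 2. The exposed arrays had means of 3.89, 3.89 and 3.74, so control 3 lay nearer to them than to its own group. The number of calls rests on this array. Control 3 was singled out from the values of these same genes, so leaving it out favours calls of a lower level. The calls made without it are therefore no separate support for a change. Without control 3, 6 of the 9 genes were called lower (mec-2, mec-7, mec-9, mec-12, mec-17 and mec-18), where 5.1% of all tested probe sets were called lower. Leaving out any other single array gave 0 calls, but these fits also called fewer of all tested probe sets lower. The share was 0.221% without control 1, 0.179% without control 2 and 0.164% without exposed 1. It was 2.1% without exposed 2 and 0.89% without exposed 3. The same 6 genes were called with weights for array quality (8.18% of all tested probe sets called lower) and without both arrays numbered 3 (5.69%). The second of these fits also leaves out control 3. With weights the median log2 change of the members was -1.26, against -1.31 without control 3 and -1.01 with all arrays. How far the weights lowered the part of control 3 was not tested, so neither fit is separate support for a change. One label of control 3, its source name, carries the number 2, and the title was followed. With controls 2 and 3 averaged into 1 sample, 3 of the 9 were called lower (mec-2, mec-7 and mec-9), where 2.66% of all tested probe sets were. Averaging takes the spread between controls 2 and 3, which was wide in these 3 genes, out of the fit. Their log2 changes were -1.16, -1.66 and -1.67, against -1.07, -1.56 and -1.52 in the main fit. These calls too are no separate support for a change.

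**Figure D1:**
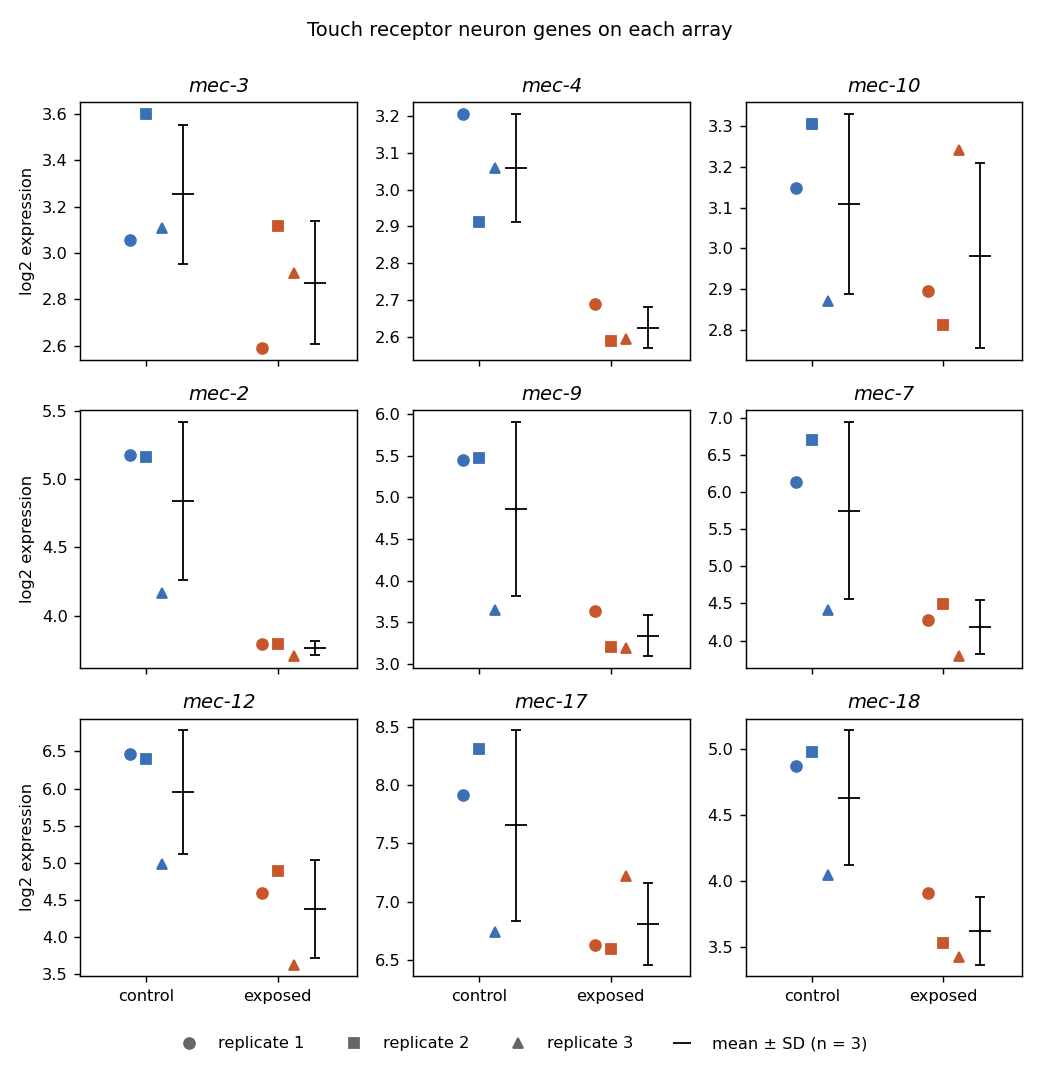
Log2 expression of each of the 9 touch receptor neuron genes on each array, with its own vertical scale for each gene. Points are single arrays (the symbol gives the replicate number), and black bars show mean ± SD of 3 arrays. Control 3 (blue triangle) is the lowest control for 7 of the 9 genes, and in mec-3, mec-7, mec-10 and mec-17 it lies within the range of the exposed arrays.

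The selector of the touch receptor fate, mec-3, was at 3.06, 3.60 and 3.11 in controls 1, 2 and 3 and at 2.59, 3.12 and 2.91 in exposed 1, 2 and 3 (log2 expression). The groups overlapped, since exposed 2 lay above controls 1 and 3. The log2 change was -0.38 ± 0.23 (SE), with a 95% interval from -0.93 to 0.16 and an adjusted p of 0.380. Without control 3 it was -0.46, with an adjusted p of 0.340.

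The pore-forming channel subunits had the smallest and the third smallest change of the 9 genes. The essential subunit mec-4 was at 3.20, 2.91 and 3.06 in controls and at 2.69, 2.59 and 2.60 in exposed worms (log2 expression). The groups did not overlap and the exposed arrays lay close together, but the gap between the nearest arrays was 0.22. The log2 change was -0.43 ± 0.17 (SE), which is 1.35-fold lower, with an adjusted p of 0.193. The partner subunit mec-10 was at 3.15, 3.31 and 2.87 in controls and at 2.90, 2.81 and 3.24 in exposed worms. These groups overlapped, and exposed 3 lay above controls 1 and 3. Its log2 change was -0.13, with a 95% interval from -0.61 to 0.36 (adjusted p = 0.763), so a fall of more than 1.53-fold lies outside the interval. With equal array medians its sign turned, to 0.080.

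The probe sets of mec-3, mec-4 and mec-10 were dim. Their mean over the 6 arrays was above that of 37.0%, 31.1% and 36.6% of tested probe sets, and all 3 fell below the brightness filter that the other 6 genes passed. RMA, the method behind the deposited values, compresses differences at the low end of the scale. The intervals of these genes therefore bound the change of the array signal, and the part of compression in their small changes was not tested.

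The channel's auxiliary subunit mec-2, a stomatin-like protein that binds cholesterol and raises channel activity, was at 5.18, 5.16 and 4.17 in controls and at 3.80, 3.80 and 3.702 in exposed worms. The exposed values lay within 0.1 of each other, whereas control 3 stood nearer to them than to controls 1 and 2. Its log2 change was -1.07 ± 0.29 (SE), or 2.10-fold lower, with a 95% interval of the fold from 1.31 to 3.38. The adjusted p was 0.090 with all arrays and 0.011 without control 3, where the fold was 2.65.

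The matrix gene mec-9, which encodes a secreted protein with Kunitz and EGF repeats, was at 5.45, 5.47 and 3.65 in controls and at 3.63, 3.20 and 3.19 in exposed worms. Controls 1 and 2 were nearly alike, and control 3 lay only 0.017 above exposed 1. The log2 change was -1.52 ± 0.48 (SE), or 2.86-fold lower (adjusted p = 0.127). Without control 3 the fold was 4.36 and the adjusted p 0.0079, the lowest of the 9 genes in that fit.

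The tubulins mec-7 and mec-12 had the most negative log2 changes of the 9 genes. The beta-tubulin mec-7 was at 6.14, 6.70 and 4.41 in controls and at 4.28, 4.50 and 3.78 in exposed worms. Control 3 lay below exposed 2, so the groups overlapped. Its log2 change was -1.56 ± 0.55 (SE), or 2.95-fold lower with a 95% interval from 1.20 to 7.25 (adjusted p = 0.157). Without control 3 the fold was 4.71 and the adjusted p 0.013.

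The alpha-tubulin mec-12, the partner of mec-7 in the wide microtubules, was at 6.47, 6.40 and 4.99 in controls and at 4.60, 4.89 and 3.63 in exposed worms. Both arrays numbered 3 were the lowest of their group, and control 3 lay 0.096 above exposed 2. The log2 change was -1.58 ± 0.48 (SE), or 2.98-fold lower with a 95% interval from 1.37 to 6.47. The adjusted p was 0.113 with all arrays and 0.028 without control 3, where the fold was 4.16.

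The alpha-tubulin acetyltransferase mec-17 was at 7.92, 8.31 and 6.74 in controls and at 6.62, 6.59 and 7.22 in exposed worms. Exposed 3 was the highest exposed array and lay above control 3, so the groups overlapped. Exposed minus control, the log2 change was -0.84 ± 0.41 (SE), with a 95% interval from -1.80 to 0.12 (adjusted p = 0.277). Without control 3 it was -1.30, with an adjusted p of 0.038.

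The gene mec-18, whose protein resembles acyl-CoA ligases and which is needed for normal touch sensitivity, was at 4.87, 4.98 and 4.04 in controls and at 3.91, 3.53 and 3.43 in exposed worms. The groups did not overlap, with 0.13 between control 3 and exposed 1. On the log2 scale the change was -1.01 ± 0.29 (SE), or 2.02-fold lower (adjusted p = 0.1001). Without control 3 the fold was 2.47 and the adjusted p 0.022.

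**Figure D2:**
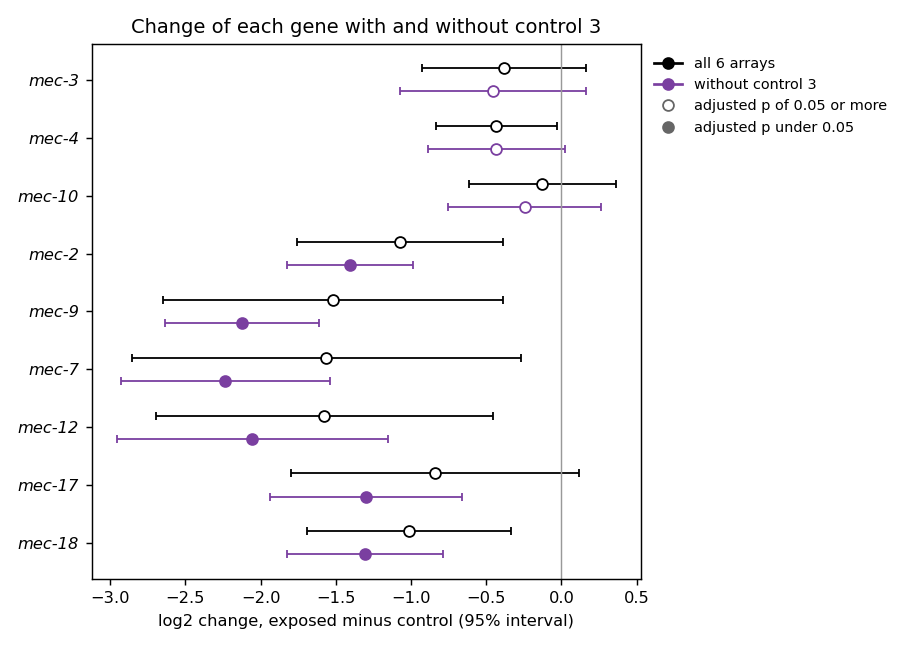
Log2 change of each gene, exposed minus control, with its 95% interval from limma, using all 6 arrays (black) or leaving out control 3 (purple). Filled circles mark an adjusted p under 0.05. Control 3 was singled out from the values of these same genes, so leaving it out favours filled circles. With all arrays no circle is filled, and without control 3 the circles of mec-2, mec-9, mec-7, mec-12, mec-17 and mec-18 are filled while mec-3, mec-4 and mec-10 stay unfilled.

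The members thus fell into genes with folds of 1.79 to 2.98 (mec-2, mec-7, mec-9, mec-12, mec-17 and mec-18) and the dim genes mec-3, mec-4 and mec-10 with folds of 1.09 to 1.35. This grouping was made after the values were seen, and the differences between members were not tested. Over the 6 arrays, the profile of each gene was set against the mean of the other 8. Pearson's r was 0.992 for mec-2, 0.982 for mec-9, 0.978 for mec-7, 0.969 for mec-18, 0.919 for mec-12 and 0.869 for mec-17. It was 0.702 for mec-4, 0.659 for mec-3 and 0.555 for mec-10. These coefficients share the same arrays and the difference between the groups, and are given as a description.

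The touch receptor genes were then compared with a list of 22 genes, called pan-neuronal here. How far each is confined to neurons, or active in all of them, was not tested. The list had array means of 7.47, 7.51 and 6.90 in controls and 6.34, 6.36 and 6.25 in exposed worms (log2). Control 3 was the lowest control here too. At the adjusted threshold 6 of the 22 were called lower and 0 higher, where 2.6% and 1.06% of all tested probe sets were. A negative log2 change was found for 20 of the 22, and 16 were lower at an unadjusted p under 0.05. All exposed arrays lay below all controls for 16 of them. The median log2 change was -0.95, close to the -1.01 of the touch receptor genes. Here and below, genes of a list that fell or rose are those called at the adjusted threshold. The list was not uniform, with log2 changes from -2.43 (rab-3) to 0.15 (unc-119). The neuronal Ras exchange factor rgef-1 was at 5.93, 6.05 and 5.74 in controls and at 4.03, 4.15 and 3.998 in exposed worms (adjusted p = 0.0073), and its call was lost only without exposed 1 (adjusted p = 0.051). The calls of the release genes ric-4, snt-1 and sng-1 (log2 changes of -1.95, -2.18 and -1.71) depended on control 1, control 2 and exposed 1, and each was lost when any of these was left out (largest adjusted p 0.073).

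After each array's pan-neuronal mean was subtracted, 0 of the 9 genes were called lower in limma, where 1.09% of all tested probe sets were called lower, and 0 of the 9 were lower at an unadjusted p under 0.05. One gene, mec-10, was called higher, with a log2 change of 0.85 ± 0.28 (SE, adjusted p = 0.022). On this scale 67.6% of all tested probe sets were called higher, because the subtracted mean itself was lower in exposed worms, so 1 call of 9 is below the background. The call of mec-10 was lost when control 1, control 2, exposed 1 or exposed 3 was left out (largest adjusted p 0.087). The centred log2 changes of mec-2, mec-18 and mec-17 were -0.10, -0.04 and 0.13, with 95% intervals from -0.69 to 0.50, from -0.64 to 0.57 and from -0.62 to 0.89. Those of mec-7, mec-9 and mec-12 were -0.59, -0.54 and -0.60, with adjusted p-values of 0.216, 0.1996 and 0.168. Without control 3, mec-7 and mec-9 were called lower in this fit (centred log2 changes of -1.06 and -0.95, adjusted p = 0.0091 and 0.0054). Of all tested probe sets 1.28% were called lower there. In the same fit mec-3, mec-4 and mec-10 were called higher, where 80.9% of all tested probe sets were. Control 3 was singled out from the values of these same genes. The calls without it are therefore no separate support for a change beyond that of the pan-neuronal genes.

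The mean of the 9 genes minus the pan-neuronal mean was -2.42, -2.30 and -2.78 in controls and -2.45, -2.46 and -2.50 in exposed worms. Controls 1 and 2 were the highest arrays and control 3 was the lowest of all 6, so the groups overlapped on this measure. The exposed arrays lay within 0.1 of each other. Taken singly, 3 of the 9 genes (mec-3, mec-4 and mec-10) had all exposed arrays above all controls on this scale. That was a smaller share than the 68.6% of all tested probe sets separated the same way.

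**Figure D3:**
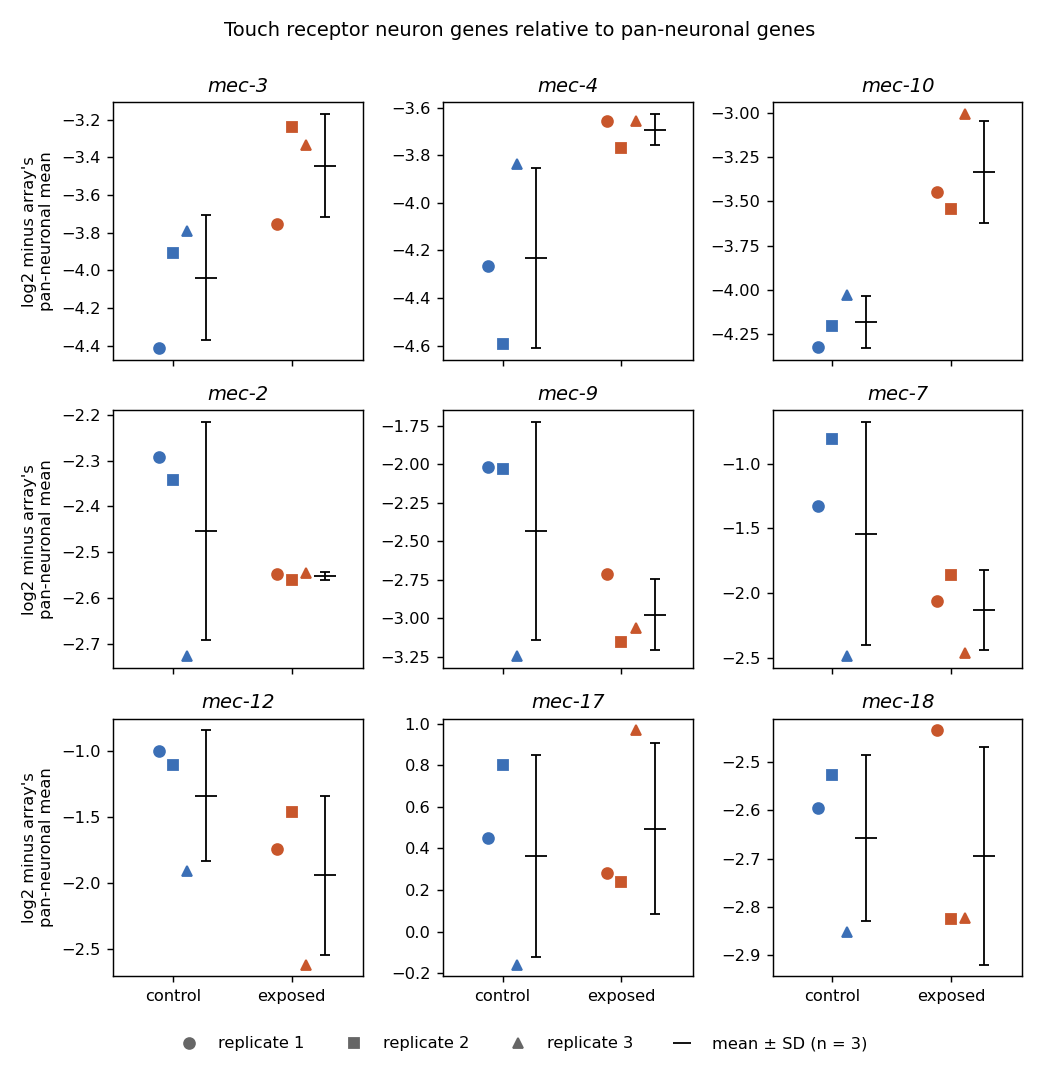
Log2 expression of each gene minus the mean of 22 pan-neuronal genes on the same array, with its own vertical scale for each gene. Points are single arrays and black bars show mean ± SD of 3 arrays. The exposed arrays lie above all controls for mec-3, mec-4 and mec-10, as for 68.6% of all tested probe sets, and the groups overlap for the other 6 genes.

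Of 13 other genes of touch receptor neurons 12 were measured, and 10 had a negative log2 change. By the test, 1 fell, 0 rose and 11 did not pass, with a median log2 change of -0.41. The gene that passed was ptl-1, the worm's tau-like microtubule-binding protein. It was at 4.94, 4.53 and 4.96 in controls and at 3.60, 3.79 and 3.7003 in exposed worms, a log2 change of -1.11 (adjusted p = 0.030). Unlike in 7 of the 9 members, control 3 was not the lowest control. The call of ptl-1 was lost when any array but control 3 was left out (largest adjusted p 0.121), and in 4 of 9 alternatives that leave out no array.

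The collagen gene mec-5, made by the epidermis for the matrix of the touch receptor processes, was at 5.62, 5.90 and 5.16 in controls and at 4.87, 4.04 and 4.78 in exposed worms (adjusted p = 0.109). The other matrix gene, mec-1, was at 3.72, 4.27 and 3.31 against 2.93, 3.02 and 3.56, and its groups overlapped (adjusted p = 0.287). The stomatin-like unc-24, a partner of MEC-2, had no overlap between groups, at 5.26, 5.12 and 5.83 in controls against 3.62, 5.07 and 4.18 (adjusted p = 0.147). The channel chaperone mec-6, the F-box gene mec-15 and the aldo-keto reductase gene mec-14 had log2 changes of -0.20, 0.14 and -0.07, with adjusted p-values of 0.638, 0.715 and 0.852. With equal array medians the signs of mec-6 and mec-14 turned, to 0.0081 and 0.13.

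Among 13 transcription factors that set or limit the touch receptor fate, 1 fell, 0 rose and 12 did not pass, with a median log2 change of -0.46. The POU factor unc-86, which acts with mec-3, was at 5.58, 5.50 and 4.74 in controls and at 3.90, 4.64 and 3.09 in exposed worms. Its groups were 0.10 apart, and its log2 change was -1.39 (adjusted p = 0.108). The heterochronic factor lin-14, which times larval development, fell from 9.31, 9.36 and 8.57 to 6.96, 7.76 and 6.93 (log2 change -1.86, adjusted p = 0.029), and its call was lost without control 1, control 2, exposed 1 or exposed 3 (adjusted p up to 0.115).

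Relatives of the member proteins were also examined. Of 27 measured DEG/ENaC channel genes other than mec-4 and mec-10, 0 passed in limma (unadjusted p under 0.05: 9 lower and 0 higher), and the median log2 change was -0.35. The lowest p-values were those of delm-2 and unc-8, at log2 changes of -1.53 (adjusted p = 0.058) and -1.22 (0.066). Of 9 stomatin genes other than mec-2, 1 fell and 0 rose, with a median of -0.97. This was unc-1, a stomatin that acts with gap junctions, which went from 8.01, 8.26 and 7.60 to 5.87, 6.11 and 5.26 (log2 change -2.21, adjusted p = 0.016) and was lost without control 1, control 2 or exposed 1 (adjusted p up to 0.076).

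Other tubulins were as often higher as lower. Of 14 other tubulin genes 1 fell, 0 rose and 13 did not pass, and the log2 change was above 0 for 7 and below 0 for 7 (median 0.01). The gene that passed was tba-7, with a log2 change of -0.82 (adjusted p = 0.046). Its call was lost without any 1 of the 6 arrays, with adjusted p-values up to 0.155. Tubulins have near-identical members, so a probe set may read RNA of more than 1 gene. The difference between mec-7 or mec-12 and the other tubulins was not tested. Of 17 genes for tubulin modification and neuronal microtubule binding, ptl-1 alone passed, with a median log2 change of -0.16.

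Genes of other mechanosensory and neuronal cells had negative medians. Of 14 TRP, TMC and Piezo channel genes 1 fell and 0 rose, with a median log2 change of -0.43. This was tmc-1, with a log2 change of -0.83 (adjusted p = 0.045), a call lost without any 1 of the 6 arrays (largest adjusted p 0.1499). Of 10 genes of FLP and PVD, the other neurons that use mec-3, 0 passed in limma (unadjusted p under 0.05: 3 lower and 0 higher), and the list median was -0.41. The acetylcholine receptor subunit des-2 and the dendrite branching receptor dma-1 had the smallest p-values there, at log2 changes of -0.89 (adjusted p = 0.122) and -0.998 (0.141). Of 9 other LIM and POU homeobox genes, 0 passed (unadjusted p under 0.05: 5 lower and 0 higher), and the list median was -0.63, and ttx-3 and lim-7 had log2 changes of -0.61 and -0.90 (adjusted p = 0.113 and 0.128). Of 11 motor neuron genes the GABA transporter unc-47 fell (log2 change -1.64, adjusted p = 0.045, lost when control 1, control 2, exposed 1 or exposed 3 was left out, largest adjusted p 0.148), with a list median of -0.60. Of 17 ciliated sensory neuron genes, 0 passed (unadjusted p under 0.05: 8 lower and 0 higher), and the list median was -0.47, and bbs-5 and che-13 had the smallest p-values (adjusted p = 0.066 and 0.071).

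The array means of the body wall muscle markers and of the germline and sperm markers did not overlap between the groups, and those of the intestine markers did. Those of the hypodermis markers were barely apart (lowest control 6.14, highest exposed 6.12), with 6 log2 changes above 0 and 6 below 0. The part of these tissues in the values of the touch receptor genes was not tested. Of 12 body wall muscle markers 3 fell and 0 rose, with a median log2 change of -0.97. Their array means were 8.24 to 8.83 in controls and 7.47 to 7.82 in exposed worms, and the calls (dim-1, tni-1 and mup-2, log2 changes of -1.25, -2.37 and -1.23) did not hold when control 1, control 2, exposed 1 or exposed 3 was left out, and that of mup-2 also without exposed 2. Of 12 germline and sperm markers 1 rose and 0 fell, with a median of 0.80. All 12 of these markers had a positive change, and 7 were higher at an unadjusted p under 0.05 (10.1% of all tested probe sets). Their array means were 5.06 to 5.49 in controls and 5.78 to 6.13 in exposed worms, and the gene that rose was the sperm phosphatase gsp-3 (log2 change 1.14, adjusted p = 0.050, lost without any 1 of the 6 arrays). The hypodermis and intestine lists had 1 fall each, in col-10 and ifb-2 (log2 changes of -3.79 and -1.16), and medians of 0.04 and -0.06, with array means of 6.14 to 6.47 and 8.57 to 8.85 in controls and of 5.41 to 6.12 and 8.37 to 8.73 in exposed worms. The calls of col-10 and ifb-2 did not hold when control 1, control 2, exposed 1 or exposed 3 was left out, and that of ifb-2 also without exposed 2.

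**Figure D4:**
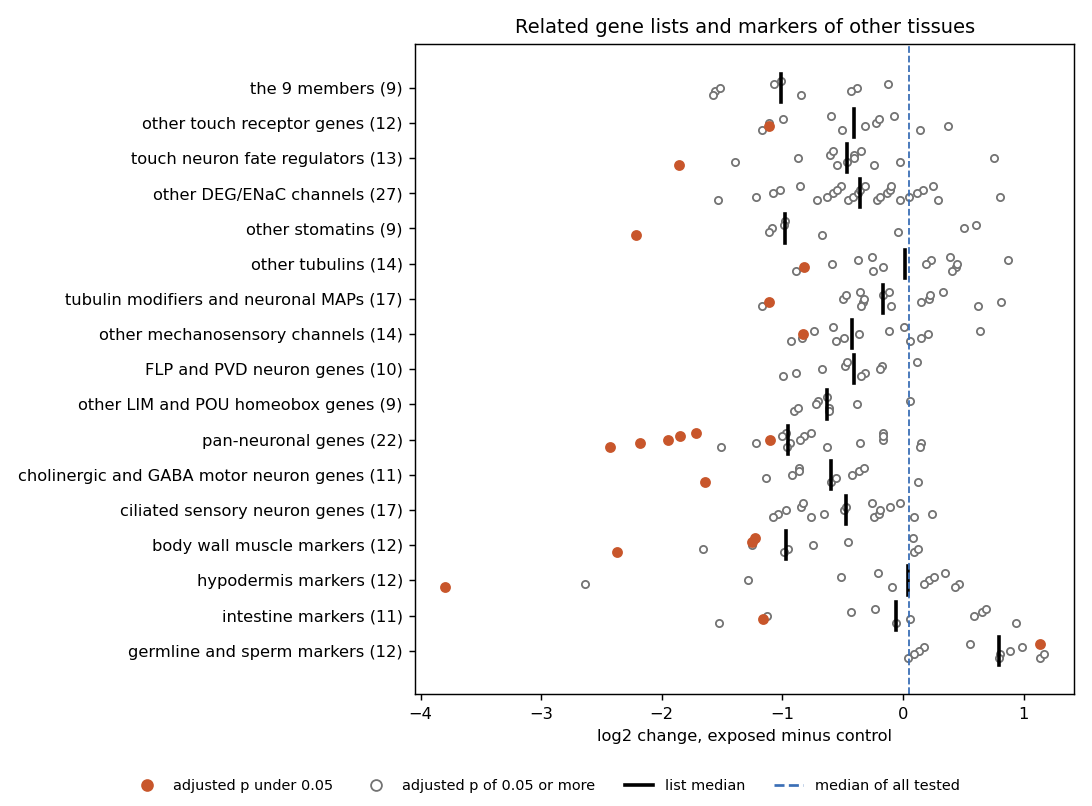
Log2 change, exposed minus control, of each gene in the touch receptor group, in 12 related lists and in 4 marker lists of other tissues, with the number of genes measured in parentheses. Points are genes (filled where the adjusted p was under 0.05), black bars are list medians and the dashed line is the median of all tested probe sets. The touch receptor genes have a median of -1.01 with no filled point, and the pan-neuronal list has a median of -0.95 with 6 filled points.

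The genes whose profile over the 6 arrays was most like the mean profile of the 9 touch receptor genes were sought among 11633 probe sets of 1 gene with a range of at least 1 log2 unit. The 5 nearest were egl-3, a proprotein convertase that processes neuropeptides (Pearson's r = 0.999), T25F10.3 (0.997), the potassium channel gene twk-17 (0.997), T06F4.1 (0.997) and C34B4.2 (0.996). None of these 5 passed in limma, with adjusted p-values of 0.117, 0.094, 0.111, 0.136 and 0.164. The log2 level of egl-3 was 7.98, 8.09 and 7.03 in controls, and in exposed worms it was 6.84, 6.74 and 6.62. Control 3 lay near the exposed group as in the touch receptor genes. The gene egl-3 is also on the pan-neuronal list. These coefficients too share the same 6 arrays and the difference between the groups, and are given as a description.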

How the data were processed

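Total RNA of whole worms (200 ng per array) was amplified and hybridised as biotin-labelled cDNA, according to the labels' protocols. RMA in Expression Console gave the deposited log2 values, per the submitters' processing notes, and these were used unchanged. Their range shows the log2 scale. No coordinates are printed, because the genome build of the array is not given in the sources used here. Of 26192 probe sets with a gene, 25546 carry 1 gene, and related genes were read from these only. All 9 members matched NCBI RefSeq (WBcel235, used for names and neighbours only). There the spans of 5 (mec-4, mec-9, mec-12, mec-17 and mec-18) overlap at least 1 other protein-coding gene. Whether the probe sets of these 5 members read RNA of the overlapping genes was not tested. No sequences are printed.

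Exposed and control arrays were compared with limma 3.58.1 (R 4.3.3; lmFit and eBayes without trend), two-sided, with Benjamini-Hochberg adjustment over 26192 probe sets and a threshold of 0.05. A second fit subtracted each array's mean over 22 pan-neuronal genes. With 3 arrays against 3, an exact permutation test of 1 gene cannot give a p under 0.1, and the number of arrays limits the precision. The fit was tested on simulated data. The members and lists were chosen with earlier results of these data known. The genes named beside the members were 8 touch receptor genes whatever their values, and from each list the genes past the threshold (at most 4) or the 2 with the smallest p. Of 174 related genes in 12 lists, 168 were measured. Alternatives left out each array, changed scaling, filter or variance model, or used the replicate number as a block. The fit without both arrays numbered 3 was chosen after seeing the data.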

Additional observations from a re-analysis of the deposited data

How the results depend on the processing

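The number of touch receptor genes called lower was 0 in limma (6 at an unadjusted p under 0.05), and 0 in 11 of 16 alternatives. It ranged from 0 to 6 when single arrays were left out, the 6 being without control 3. Of all tested probe sets 5.1% were called lower without control 3, and 0.164% to 2.1% without any other single array. The number of members called lower was 6 with array weights and without both arrays numbered 3 (mec-2, mec-7, mec-9, mec-12, mec-17 and mec-18 in each). It was 3 with controls 2 and 3 averaged (mec-2, mec-7 and mec-9) and 1 with the replicate number as a block (mec-12, adjusted p = 0.031). Under the block 2.49% of all tested probe sets were called lower. No fit called a member higher. All members tested had a negative log2 change in every fit except mec-10, at 0.080 with equal array medians, where mec-6 and mec-14 were at 0.0081 and 0.13. Equal medians moved the median over all tested probe sets from 0.05 to 0.26 (log2), and that of the members from -1.01 to -0.80. On that scale 60.1% of all calls were higher, against 29.0% as deposited.

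Relative to the pan-neuronal mean, the number called lower was 0 to 2 with single arrays left out (0.71% to 1.28% of all tested probe sets). It was 3 with array weights (2.08%) and 3 without both arrays numbered 3 (1.49%). The number called higher was 1 in the main fit and 0 to 3 with single arrays left out (38.5% to 80.9% of all tested probe sets). It was 3 with array weights (85.9%) and 2 without both arrays numbered 3 (81.3%). It was 0 without dim probe sets, where mec-3, mec-4 and mec-10 were not tested. The log2 change of mec-2 turned to 0.11 and that of mec-18 to 0.16 after a second quantile normalization. That of mec-17 turned to -0.13 with array weights and -0.37 without both arrays numbered 3. With single arrays left out, mec-17 lay between -0.13 and 0.35 and mec-18 between -0.17 and 0.030.

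Of the 168 related genes, 12 were called lower and 0 higher, where 2.6% and 1.06% of all tested probe sets were. With single arrays left out these were 0 to 36 and 0 to 1, the 0 without exposed 1 and the 36 without control 3. Of all tested probe sets 0.164% and 5.1% were called lower in those 2 fits. The related genes called were 44 and 2 with array weights (8.18% lower and 5.08% higher over all tested probe sets). They were 34 and 1 without both arrays numbered 3 (5.69% and 3.16%), and 7 and 1 with equal medians (1.52% and 2.28%). The share called over all tested probe sets thus shifted as well. The cause of these shifts was not tested.

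Same-numbered arrays deviated from their group means with r of 0.14, 0.08 and 0.25 across probe sets. Differently numbered arrays had r of 0.19, 0.07, -0.10, -0.16, -0.21 and -0.23. The largest r was that of the arrays numbered 3. The main fit did not take the numbers to pair the samples, and whether they do was not tested. Detection calls and scanner files were not used here, so signal over background is not known for the dim genes.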
